A study of Homo sapiens with 6 samples.

Results

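The 44 genes described here encode proteins of the kinetochore and the centromere together with the chromosomal passenger complex. They were taken by symbol from a fixed set of such genes, out of 60589 genes listed in the deposited expression table, and each symbol matched 1 gene. The set was chosen with earlier results of these data known, so its shares beside those of all tested genes are descriptions only. RNA was sequenced from SNU449 cells, a line established from a human hepatocellular carcinoma, at day 3 in 2 groups. In siMAD2L1 (3 libraries) the cells had received an siRNA against MAD2L1, a spindle checkpoint gene, and in siControl (3 libraries) a control siRNA. All libraries come from that single line, and both groups carried an siRNA. The labels do not say whether replicates were separate cultures, so each p-value reflects library-to-library spread, which may be technical.

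The kinetochore is the protein assembly that forms on the centromere of each chromosome and holds it to spindle microtubules in mitosis. Nucleosomes with the histone variant CENP-A mark the site, the constitutive centromere-associated network sits on them, and the KNL1, MIS12 and NDC80 complexes reach out to the microtubule. Kinetochores without a microtubule recruit checkpoint proteins, the MAD2L1 product among them, while the chromosomal passenger complex releases wrong attachments. Many of these transcripts are known to accumulate late in the cell cycle and to be abundant in dividing tumour cells.

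The values are TPM (an abundance scaled to transcript length and to a fixed total per library), so read depth cannot be given and neither can an interval for counting error. MAD2L1 stood at 4.47, 0.795 and 2.40 TPM in siMAD2L1 replicates 1, 2 and 3, against 14.5, 13.7 and 13.9 TPM in siControl, which is 31.9%, 5.66% and 17.1% of the siControl mean (log2 fold change -2.22, SE 0.357, limma adjusted p = 0.0105). That p moved to 0.0597, 0.0547 and 0.0572 when siControl replicate 1, 2 or 3 was left out. The treatment field names MAD2L2 and MAD2L3 for siMAD2L1 replicates 2 and 3 while their titles name MAD2L1; MAD2L2 was at 123, 154 and 138 TPM in siMAD2L1, against 150, 146 and 138 TPM in siControl (adjusted p = 0.698). Over tested genes, siMAD2L1 replicate 1 correlated with replicates 2 and 3 at 0.969 and 0.974, and those correlated with each other at 0.980 (Pearson's r of log2 values across genes, which are not independent replicates). Mitochondrially encoded transcripts held 9.21% to 10.9% of the TPM in siMAD2L1, against 15.2% to 15.3% in siControl. Of the 10 hepatocyte markers 4 averaged at least 1 TPM, APOB and TTR were listed at 0 in each library, and the summed level was 7.99 to 13.8 TPM in siMAD2L1 and 17.8 to 23.6 TPM in siControl. Of the 8 mesenchymal markers 7 averaged at least 1 TPM, summed at 11158 to 11792 TPM in siMAD2L1 and 9888 to 10810 TPM in siControl, most of it VIM. Of the 8 leukocyte markers 3 averaged at least 1 TPM; their sum was 129 to 150 TPM in siMAD2L1 and 69.7 to 77.2 TPM in siControl, nearly all of it CD68, with CD3E, MS4A1 and NKG7 at 0. None of the 6 endothelial markers averaged 1 TPM.

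Promoter sequences are shown first for the 4 genes that passed the test and have an entry in the promoter table, since genes of this kind are known to share a few short elements, and then for CENPB, which did not pass and whose window holds none of the motifs searched. The windows come from RefSeq (build GRCh38.p14) and run from 160 bases before to 10 bases after the annotated transcript start. They are written 5′ to 3′ on the gene's strand, and capitals mark a match to CCAAT or TTTGAA on either strand, so that ATTGG and TTCAAA are the reverse complements. The positions are chr17:8210216-8210385 on the minus strand for AURKB, chr1:37692356-37692525 on the plus strand for CDCA8, chr2:168890421-168890590 on the minus strand for SPC25, chr10:56361250-56361419 on the minus strand for ZWINT and chr20:3786731-3786900 on the minus strand for CENPB.
AURKB: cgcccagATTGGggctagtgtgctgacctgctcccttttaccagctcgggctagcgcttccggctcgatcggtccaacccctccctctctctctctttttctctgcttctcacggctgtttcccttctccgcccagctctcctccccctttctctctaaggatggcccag
CDCA8: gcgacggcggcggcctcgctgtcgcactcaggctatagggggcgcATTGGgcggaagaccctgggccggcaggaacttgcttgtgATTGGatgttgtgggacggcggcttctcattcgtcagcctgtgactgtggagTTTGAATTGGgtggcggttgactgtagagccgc
SPC25: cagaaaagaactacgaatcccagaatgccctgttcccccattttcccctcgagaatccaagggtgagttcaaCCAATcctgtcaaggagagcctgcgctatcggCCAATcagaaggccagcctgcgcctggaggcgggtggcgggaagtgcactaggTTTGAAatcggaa
ZWINT: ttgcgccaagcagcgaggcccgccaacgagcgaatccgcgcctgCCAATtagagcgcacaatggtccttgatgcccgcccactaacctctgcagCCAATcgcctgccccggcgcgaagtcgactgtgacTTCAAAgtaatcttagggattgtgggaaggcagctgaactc
CENPB: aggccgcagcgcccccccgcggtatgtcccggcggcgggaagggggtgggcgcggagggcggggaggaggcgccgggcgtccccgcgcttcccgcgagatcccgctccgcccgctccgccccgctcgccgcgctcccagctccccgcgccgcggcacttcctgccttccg
CCAAT is the CCAAT box, bound by the factor NF-Y. TTTGAA is a form of the cell cycle genes homology region, an element through which MuvB complexes are known to act on late cell cycle genes. In CDCA8 the 2 motifs overlap, in TTTGAATTGG.

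Over the whole windows of 250 bases before to 50 bases after the start, 25 of 37 genes with an entry (67.6%) held CCAAT, against 35.7% of the promoters of all 27305 genes in the table and 36.8% of the 10229 promoters of tested genes. TTTGAA was in 16 of the 37 (43.2%), against 15.4% of all promoters and 9.09% of those of tested genes. Both motifs stood together in 11 of the 37 (29.7%), against 6.08% and 4.01%. A pair of E2F site forms, TTTCCCGC and TTTGGCGC, was in 3 of the 37 (8.11%), in CENPA, MIS12 and OIP5, against 2.31% and 3.81%. Among genes that passed the test, CCAAT was in 4 of 4 windows and TTTGAA in 3 of 4. Among the others, CCAAT was in 21 and TTTGAA in 13 of 33, so CENPB is not typical of them. HJURP, with 4 matches to CCAAT and 1 to TTTGAA, did not pass either. Among all tested genes that were lower in siMAD2L1, CCAAT was in 42.5% and TTTGAA in 11.8% of 676 windows. These are matches of letters only, and BIRC5, CENPH, CENPL, CENPM, KNL1, KNTC1 and MIS18A had no window.

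Across the 44 genes, the summed transcript level was lower in siMAD2L1, and 3 of the 6 genes that fell belong to the chromosomal passenger complex. Summed, the 44 stood at 912, 896 and 964 TPM in the siMAD2L1 libraries, against 1180, 1157 and 1248 TPM in siControl, a mean of 924 ± 35.9 TPM and of 1195 ± 47.5 TPM (SD, n = 3 each), or 77.3%. The 2 groups did not overlap in this sum. BIRC5, AURKB, CDCA8, CENPM, SPC25 and ZWINT fell, 0 genes rose, and 38 did not pass. The 6 that fell had a median siControl level of 49.4 TPM, and the 38 others 9.26 TPM. All 44 averaged at least 1 TPM and were tested, among 14790 genes, by limma on log2(TPM + 1) with a call at a Benjamini-Hochberg adjusted p under 0.05. In simulated data with 200 changed genes, this fit found 10.4% of changes of 0.5 on the log2 scale. Here 1446 genes were called, so that share may differ in these data. A gene that did not pass may still have changed. Fallen genes made up 13.6% of the 44, against 6.23% of all tested genes. None of the 44 rose, against 3.55% of all tested genes, and 9.78% of all tested genes were called in either direction. At an unadjusted limma p under 0.05, 22 of the 44 were lower and 1 was higher, against 17.4% and 8.9% of all tested genes.

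The log2 fold change was negative for 41 of the 44, with a median of -0.37, against -0.08 over all tested genes. All 3 siMAD2L1 libraries lay below all 3 siControl libraries for 20 of the 44 (45.5%), against 21.5% of all tested genes; 14 of these 20 did not pass the test. The reverse held for 1 gene, CENPQ, against 11.3% of all tested genes. In RNA from a whole culture, fewer cells in the phase that makes a transcript and less of the transcript per cell cannot be told apart. BIRC5 kept its call in each alternative run, whereas the 5 others lost it in at least 1; with upper-quartile scaling BIRC5 and SPC25 passed and CENPM, AURKB, CDCA8 and ZWINT did not. Direction held for these 6 genes in every alternative, but HJURP, CENPH, CENPT, CENPB, CENPE, KNL1 and SPDL1 changed sign under at least 1 other scaling or the length correction, and CENPL did without the mitochondrial genes.

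**Figure D1:**
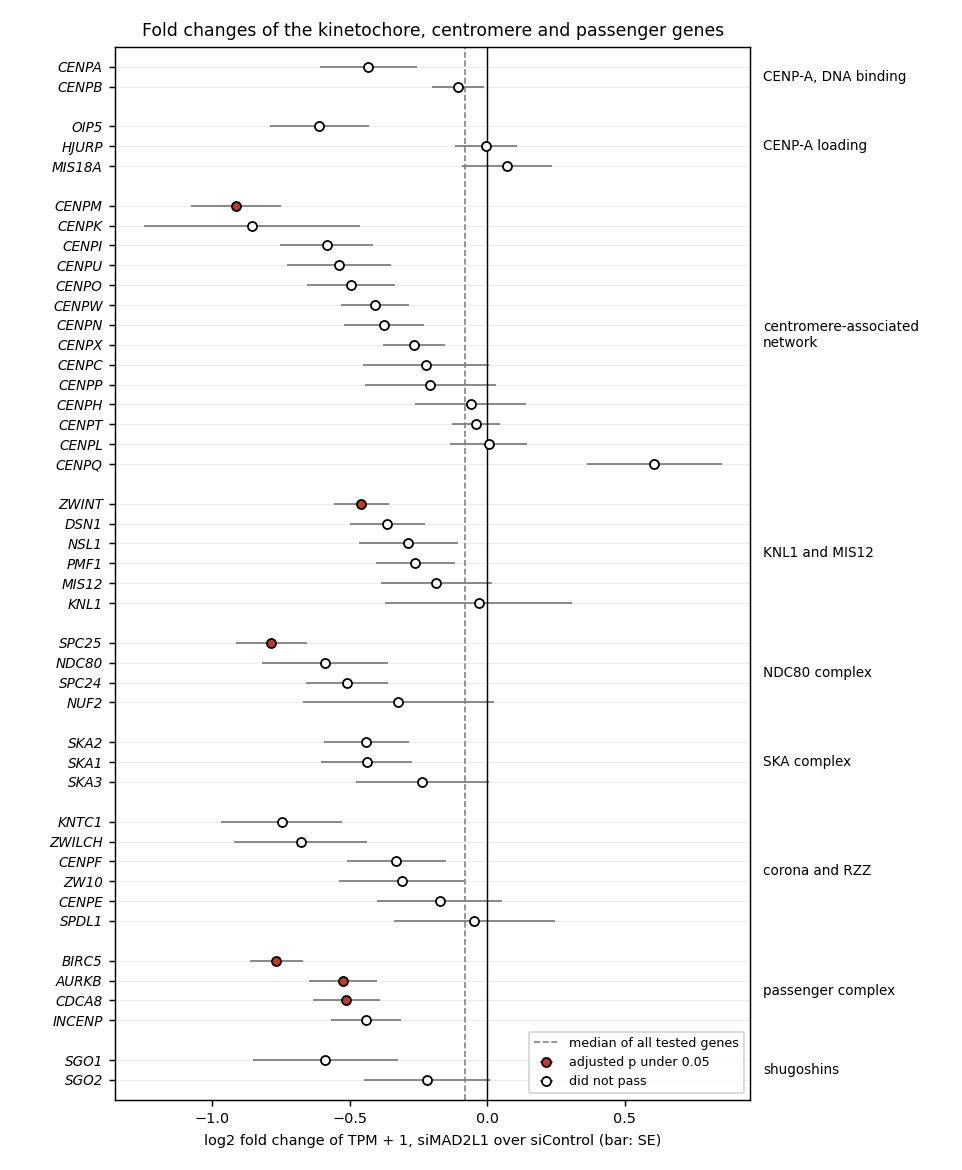
Log2 fold change of TPM + 1 (x axis, siMAD2L1 over siControl) for each of the 44 genes, grouped by role; bars are the SE from limma, filled points passed at an adjusted p under 0.05 and the dashed line is the median of all tested genes at -0.08. Most points lie left of that line, and CENPQ at 0.61 is the farthest to the right.

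The chromosomal passenger complex, the kinase Aurora B with its partners, was the group with most genes past the test, 3 of 4. BIRC5 (survivin, which brings the complex to the centromere; chr17:78214186-78225636, as all gene positions here in GRCh38 from GENCODE 29) was at 49.1, 50.2 and 60.5 TPM in siMAD2L1, against 90.4, 90.7 and 91.8 TPM in siControl. Every siMAD2L1 library lay well under the narrow siControl range, and BIRC5 fell by 0.77 on the log2 scale (SE 0.0976, limma adjusted p = 0.00465); the highest adjusted p with a library left out was 0.0366. AURKB (Aurora B kinase; chr17:8204733-8210600) was at 41.6, 57.4 and 46.5 TPM in siMAD2L1, against 72.4, 65.6 and 70.9 TPM in siControl. The groups did not overlap, replicate 2 of siMAD2L1 coming nearest to siControl, and AURKB fell by 0.52 (SE 0.124, adjusted p = 0.038). CDCA8 (borealin, a structural subunit; chr1:37692418-37709719) was at 13.0, 15.8 and 15.9 TPM in siMAD2L1, against 22.6, 22.6 and 19.7 TPM in siControl. These groups did not overlap either, siMAD2L1 replicate 1 being the lowest, and CDCA8 fell by 0.51 (SE 0.123, adjusted p = 0.0391). INCENP, the scaffold that binds and activates Aurora B, was at 9.06, 9.002 and 11.0 TPM in siMAD2L1, against 14.4, 13.0 and 13.0 TPM in siControl, without overlap, but did not pass (log2 fold change -0.44, adjusted p = 0.0703).

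Summed over the complex, the level was 126 ± 11.8 TPM in siMAD2L1 and 196 ± 3.95 TPM in siControl (SD, n = 3 each), or 64.6%. The NDC80 complex, with 1 of 4 genes past the test, had a similar sum, at 67.0% of siControl. Its median log2 fold change was -0.55, against -0.52 for the passenger complex. AURKB lost its call without siMAD2L1 replicate 3 (adjusted p = 0.117) and without siControl replicate 1, 2 or 3 (adjusted p = 0.145, 0.0913 and 0.132). CDCA8 lost it without siMAD2L1 replicate 2 or 3 (0.0706 and 0.0827) and without siControl replicate 1, 2 or 3 (0.156, 0.129 and 0.0917).

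**Figure D2:**
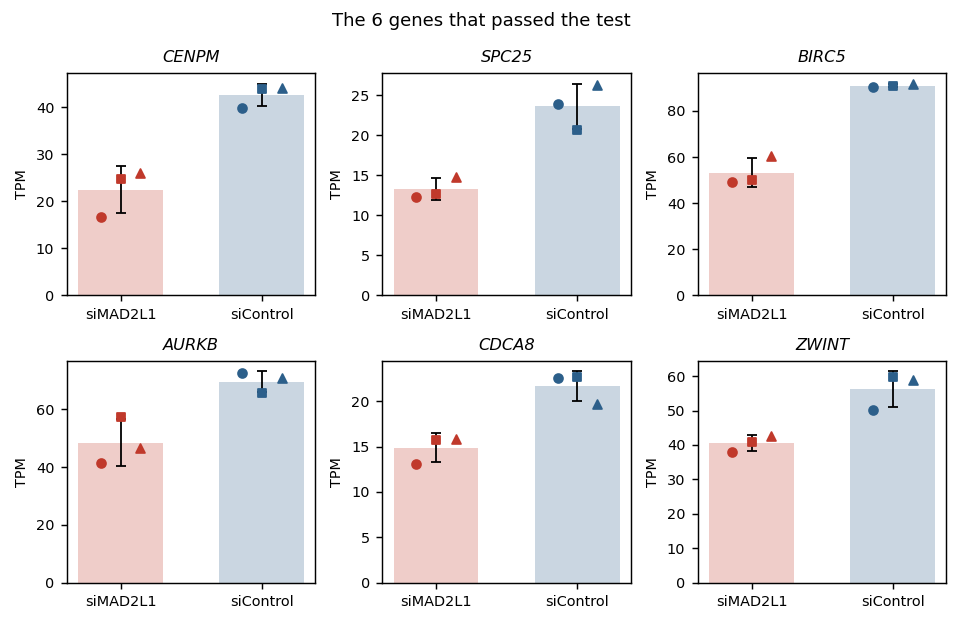
TPM (y axis, from 0) of the 6 genes that passed the test, in siMAD2L1 and siControl; bars are means, error bars the SD over 3 libraries, and circles, squares and triangles are replicates 1, 2 and 3. In each panel all 3 siMAD2L1 points lie below all 3 siControl points, from 49.1 to 60.5 TPM against 90.4 to 91.8 TPM for BIRC5.

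The histone variant itself and the factors that place it showed no gene past the test, 0 of 2 and 0 of 3. CENPA, which encodes the centromeric histone, averaged 14.8 ± 3.89 TPM in siMAD2L1 and 19.9 ± 1.36 TPM in siControl (SD, n = 3 each), a log2 fold change of -0.43 (limma adjusted p = 0.164), and the groups overlapped through siMAD2L1 replicate 3. CENPB, which binds a short box in centromeric satellite DNA, was at 74.3, 85.4 and 91.3 TPM in siMAD2L1, against 89.2, 87.5 and 92.8 TPM in siControl. Replicate 3 of siMAD2L1 lay within the siControl range, and the log2 fold change was -0.11 (adjusted p = 0.516). HJURP, the chaperone that hands CENP-A to the centromere, was at 63.9, 48.9 and 52.2 TPM in siMAD2L1, against 53.1, 55.4 and 56.1 TPM in siControl. One siMAD2L1 library was above and the other two below the siControl range (adjusted p = 0.986). OIP5 and MIS18A encode subunits of the MIS18 complex, which primes the centromere for HJURP. OIP5 was at 4.23, 5.83 and 6.07 TPM in siMAD2L1, against 9.62, 7.22 and 9.31 TPM in siControl, with no overlap (log2 fold change -0.61, adjusted p = 0.0733). MIS18A averaged 7.30 TPM in siMAD2L1 and 6.91 TPM in siControl, and its groups overlapped.

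The constitutive centromere-associated network, the inner layer that stays on the centromere through the cell cycle, had 1 of 14 genes past the test. That gene was CENPM (chr22:41938721-41947164), which encodes a subunit of the CENP-H/I/K/M group, at 16.7, 24.8 and 26.03 TPM in siMAD2L1, against 39.9, 43.97 and 44.05 TPM in siControl. The groups were far apart, with siMAD2L1 replicate 1 the lowest, and CENPM fell by 0.92 on the log2 scale (SE 0.164, adjusted p = 0.0152). It lost its call without siControl replicate 1, 2 or 3 (adjusted p = 0.0643, 0.0688 and 0.0737). CENPI, of the same group, was at 8.56, 5.53 and 8.12 TPM in siMAD2L1, against 11.3, 11.6 and 11.4 TPM in siControl, with no overlap but no call (log2 fold change -0.58, adjusted p = 0.0698). CENPK was at 5.51, 1.40 and 3.70 TPM in siMAD2L1, against 10.1, 5.86 and 4.69 TPM in siControl, where replicate 1 of siMAD2L1 overlapped the controls (log2 fold change -0.86, SE 0.392, adjusted p = 0.212). CENPH, the remaining subunit, averaged 8.86 TPM in siMAD2L1 and 9.21 TPM in siControl, with overlap. The 4 genes of that group summed to 42.0, 40.3 and 44.7 TPM in siMAD2L1, against 72.5, 70.0 and 68.0 TPM in siControl, or 60.3%, and most of that sum was CENPM.

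Within the CENP-O/P/Q/U group, which helps to bring the kinase PLK1 to the centromere, members differed in sign. CENPU was at 6.80, 4.90 and 3.97 TPM in siMAD2L1, against 8.13, 7.48 and 8.07 TPM in siControl, without overlap (log2 fold change -0.54, adjusted p = 0.116). CENPQ was at 4.92, 2.78 and 2.60 TPM in siMAD2L1, against 2.03, 2.01 and 1.495 TPM in siControl. It was the only one of the 44 with every siMAD2L1 library above every siControl library, replicate 1 being the highest, but it did not pass (log2 fold change 0.61, SE 0.245, adjusted p = 0.162); it passed under quantile normalization (adjusted p = 0.048). CENPO averaged 10.9 TPM in siMAD2L1 and 15.9 TPM in siControl (adjusted p = 0.0908), and CENPP 5.30 and 6.49 TPM. Both lie over exons of genes on the other strand, 1488 exonic bases of ADCY3 for CENPO and 3719 of IPPK for CENPP; the strand setting of the counting is not given in the sources used here, so reads may be shared. CENPX, of the histone-fold group with CENP-S, CENP-T and CENP-W, had the highest level of the 44, at 134, 177 and 156 TPM in siMAD2L1, against 175, 182 and 203 TPM in siControl. Replicate 2 of siMAD2L1 lay within the siControl range, and CENPX did not pass (log2 fold change -0.27, adjusted p = 0.178). CENPW averaged 28.3 TPM in siMAD2L1 and 37.9 TPM in siControl without overlap (adjusted p = 0.0766), and CENPT 28.3 and 29.1 TPM. CENPN, whose product reads CENP-A nucleosomes, averaged 38.0 TPM in siMAD2L1 and 49.4 TPM in siControl (adjusted p = 0.148). Its partner CENPL averaged 7.16 TPM in siMAD2L1 and 7.13 TPM in siControl. CENPC, whose product joins the inner to the outer kinetochore, was among the lowest of the 44, at 0.934 TPM in siMAD2L1 and 1.24 TPM in siControl.

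Of the KNL1 and MIS12 complexes, which link the inner kinetochore to the microtubule binders and carry the checkpoint platform, 1 of 6 genes passed. ZWINT, the KNL1 partner that helps to recruit the RZZ complex (chr10:56357228-56361275), was at 38.0, 41.0 and 42.7 TPM in siMAD2L1, against 50.1, 59.6 and 58.8 TPM in siControl. The siMAD2L1 libraries lay close together and below siControl, and ZWINT fell by 0.46 (SE 0.101, adjusted p = 0.03). Its call was lost without siMAD2L1 replicate 2 or 3 (adjusted p = 0.0721 and 0.0712) and without siControl replicate 1, 2 or 3 (0.0614, 0.104 and 0.122). KNL1, the scaffold for BUB1 and BUB3, was at 3.86, 0.907 and 1.53 TPM in siMAD2L1, against 1.98, 1.85 and 1.94 TPM in siControl: replicate 1 stood above and replicates 2 and 3 below the siControl range. The MIS12 complex has as its subunits MIS12, DSN1, NSL1 and PMF1. DSN1 averaged 14.3 TPM in siMAD2L1 and 18.6 TPM in siControl with no overlap (adjusted p = 0.137), NSL1 16.4 and 20.01 TPM, and MIS12 4.53 and 5.19 TPM. PMF1 was at 40.4, 58.1 and 57.9 TPM in siMAD2L1, against 64.3, 59.1 and 62.3 TPM in siControl. Only replicate 1 of siMAD2L1 was far below siControl (log2 fold change -0.26, adjusted p = 0.296), and PMF1 shares 587 exonic bases with the readthrough gene PMF1-BGLAP.

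In the NDC80 complex, the main microtubule binder, the SPC24 and SPC25 pair at its inner end and the NDC80 and NUF2 pair at its outer end were ordered differently over the siMAD2L1 libraries, a difference that was not tested. SPC25 (chr2:168834132-168913371) was at 12.3, 12.7 and 14.8 TPM in siMAD2L1, against 23.9, 20.7 and 26.3 TPM in siControl. The groups did not overlap, and SPC25 fell by 0.79 (SE 0.130, adjusted p = 0.0115); the call was lost without siControl replicate 1 or 3 (adjusted p = 0.0676 and 0.0642). SPC24 was at 22.4, 22.5 and 30.5 TPM in siMAD2L1, against 38.6, 31.1 and 38.3 TPM in siControl, with a small gap between the groups and no call (log2 fold change -0.51, adjusted p = 0.0718). NDC80 was at 5.07, 3.12 and 2.45 TPM in siMAD2L1, against 6.26, 5.31 and 5.44 TPM in siControl (log2 fold change -0.59, adjusted p = 0.148). Here replicate 1 of siMAD2L1 came closest to siControl. NUF2 was at 14.1, 4.46 and 5.69 TPM in siMAD2L1, against 8.42, 8.65 and 10.8 TPM in siControl, so that replicate 1 exceeded every siControl library and the other two lay below them all (log2 fold change -0.32, adjusted p = 0.601). The inner pair summed to 34.7, 35.2 and 45.3 TPM in siMAD2L1, against 62.5, 51.8 and 64.6 TPM in siControl. The outer pair summed to 19.1, 7.58 and 8.13 TPM in siMAD2L1, against 14.7, 14.0 and 16.3 TPM in siControl.

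The SKA complex, which keeps the NDC80 complex on shortening microtubule ends, had 0 of 3 genes past the test. SKA2 was at 57.2, 36.3 and 47.2 TPM in siMAD2L1, against 61.6, 61.6 and 65.7 TPM in siControl. All siMAD2L1 libraries were below siControl, replicate 1 by least, and the log2 fold change was -0.44 (adjusted p = 0.115). SKA1 averaged 9.48 TPM in siMAD2L1 and 13.0 TPM in siControl, again with no overlap (adjusted p = 0.138), and SKA3 2.53 and 3.24 TPM, with overlap.

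The outermost layer, the fibrous corona with its motors and the RZZ complex that brings dynein and the MAD1 and MAD2 proteins, had 0 of 6 genes past the test. KNTC1, the largest RZZ subunit, was at 9.61, 5.82 and 4.84 TPM in siMAD2L1, against 11.3, 12.2 and 11.3 TPM in siControl. The groups did not overlap, and KNTC1 missed the threshold (log2 fold change -0.75, SE 0.220, adjusted p = 0.0716). ZWILCH, a second RZZ subunit, was at 5.91, 2.90 and 5.53 TPM in siMAD2L1, against 9.22, 6.85 and 7.97 TPM in siControl, without overlap (log2 fold change -0.68, adjusted p = 0.121); it shares 158 exonic bases with RPL4, a ribosomal protein gene on the other strand at 1971 TPM. ZW10, the subunit that binds dynein's partners, was at 10.6, 5.43 and 6.07 TPM in siMAD2L1, against 9.18, 8.28 and 9.70 TPM in siControl, replicate 1 above and the other two below siControl (adjusted p = 0.434). SPDL1 (Spindly, a dynein adaptor) averaged 8.84 TPM in siMAD2L1 and 8.65 TPM in siControl, with replicates 1 and 3 of siMAD2L1 above and replicate 2 below the siControl range. CENPF, a large corona protein of G2 and mitosis, averaged 28.9 TPM in siMAD2L1 and 36.0 TPM in siControl (adjusted p = 0.287). The kinesin CENPE was at 0.883 TPM in siMAD2L1 and 1.12 TPM in siControl, the lowest siControl mean of the 44.

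Neither of the shugoshins, which protect centromeric cohesin, passed. SGO1 was at 6.85, 2.95 and 4.20 TPM in siMAD2L1, against 6.95, 8.80 and 6.04 TPM in siControl. Replicate 1 of siMAD2L1 lay within the siControl range and the others below it (log2 fold change -0.59, adjusted p = 0.205). SGO2 averaged 4.89 TPM in siMAD2L1 and 5.69 TPM in siControl, with replicate 1 above the siControl range.

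**Figure D3:**
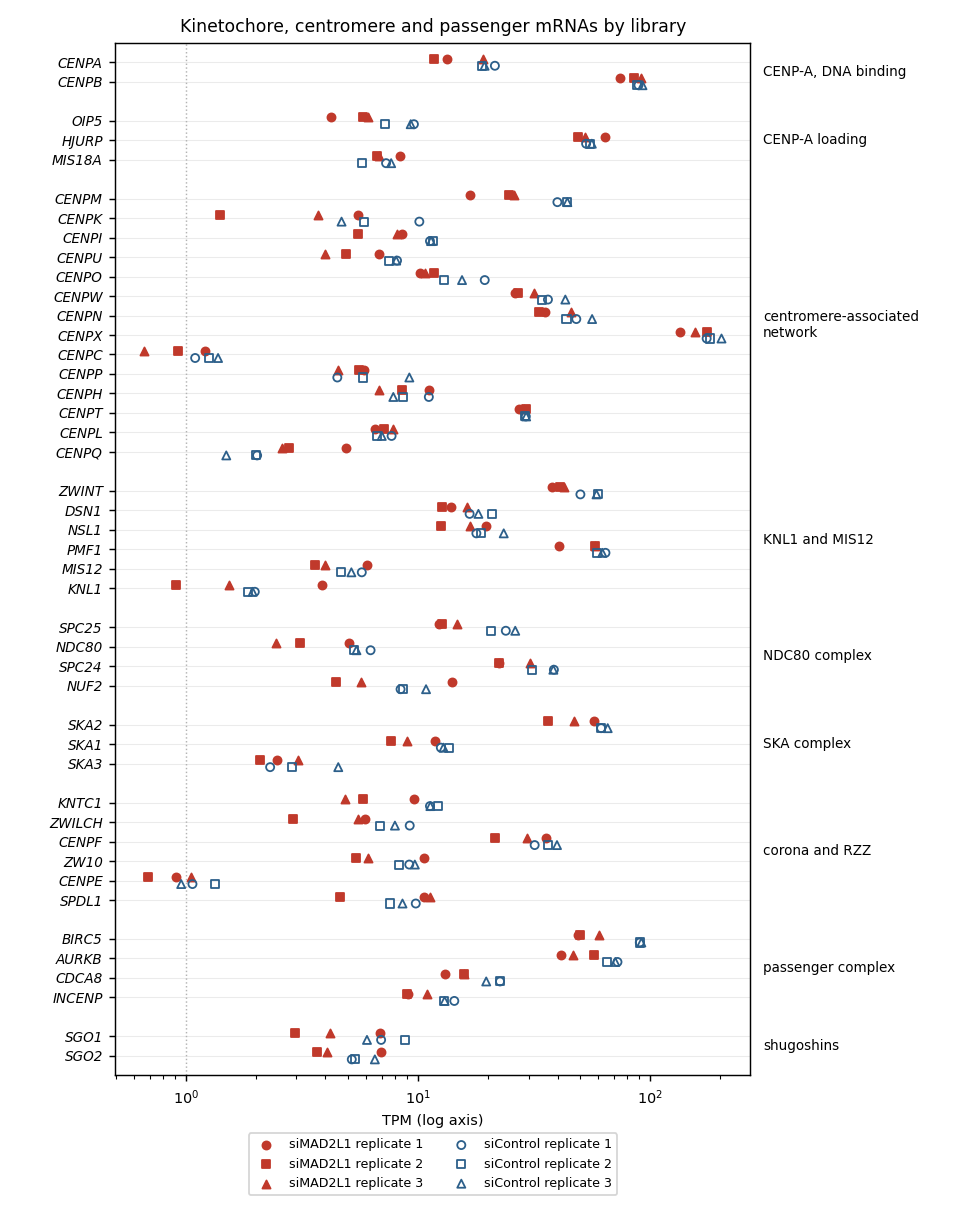
TPM (x axis, log scale) of each of the 44 genes in every library, grouped by role; filled red points are siMAD2L1, open blue points siControl, and the shape gives the replicate. Levels run from about 1 TPM for CENPC and CENPE to over 100 TPM for CENPX, and the filled circles of replicate 1 lie right of the siControl points for 10 genes.

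The siMAD2L1 libraries differed among themselves. Relative to the siControl mean, the median difference of the 44 genes in log2(TPM + 1) was -0.20 in siMAD2L1 replicate 1, -0.52 in replicate 2 and -0.38 in replicate 3, against 0.02, -0.15 and -0.12 over all tested genes. Replicate 1 was below the siControl range for 27 genes, within it for 7 and above it for 10. Replicate 2 was below, within and above it for 37, 6 and 1, and replicate 3 for 34, 7 and 3. The 10 genes above the range in replicate 1 were NUF2, KNL1, ZW10, SGO2, HJURP, MIS18A, CENPH, CENPQ, MIS12 and SPDL1. Of the 3 siMAD2L1 libraries, replicate 1 was the highest for 22 of the 44 genes and the lowest for 15, replicate 2 the highest for 5 and the lowest for 22, and replicate 3 the highest for 17 and the lowest for 7. Neither these counts nor those by range are given for all tested genes. They therefore do not set the 44 genes apart from a shift of a whole library. The 6 genes that passed were all lowest in replicate 1, as were 9 of the 38 that did not pass. The calls were made from these same libraries, so this order is not independent of the test. Its cause was not tested.

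Over the 44 genes, Spearman's rho between the longest spliced length and the difference from the siControl mean, which all 3 values share, was 0.365 in replicate 1, -0.0961 in replicate 2 and 0.0455 in replicate 3. Over 14363 tested genes with a length it was 0.232, -0.0708 and 0.0652. The 6 genes that passed had a median longest spliced length of 1657.5 bases, against 2679.5 bases for the 38 that did not. Replicate 1 was also the siMAD2L1 library with the most MAD2L1, at 31.9% of the siControl mean. The part of residual MAD2L1 in the differences between libraries was not tested. Removal of a length trend from each library moved the median log2 fold change of all tested genes from -0.08 to 0.01. With it BIRC5, CENPM and SPC25 kept their calls. AURKB (log2 fold change -0.40, adjusted p = 0.104), CDCA8 (-0.40, adjusted p = 0.124) and ZWINT (-0.33, adjusted p = 0.107) lost theirs, and KNTC1 (-0.71, adjusted p = 0.0414) gained one. The 4 genes then called lower made up 9.09% of the 44, against 3.52% of all genes tested in that run.

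Without siMAD2L1 replicate 1, 15 of the 44 genes (34.1%) were called lower, against 11.5% of all tested genes. All 6 genes were among them. The 9 added were NUF2 (log2 fold change -0.76, adjusted p = 0.0264) and NDC80 of the NDC80 complex, SKA1 and SKA2, KNTC1 (-0.997, adjusted p = 0.00615) and ZW10 of the RZZ complex, CENPI, CENPU and SGO1. Without siMAD2L1 replicate 2 the count was 4 (9.09%, against 3.33% of all tested genes), from which CDCA8 and ZWINT were missing. Without siMAD2L1 replicate 3 it was also 4 (9.09%, against 2.76%), of which SPC24 was added while AURKB, CDCA8 and ZWINT were missing. Without siControl replicate 1, 2 or 3 it was 1, 2 and 1 (2.27%, 4.55% and 2.27%, against 1.27%, 1.81% and 1.53%). These counts of 1 or 2 genes are too small to compare with the shares of all tested genes. BIRC5 was called in each of these fits.

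**Figure D4:**
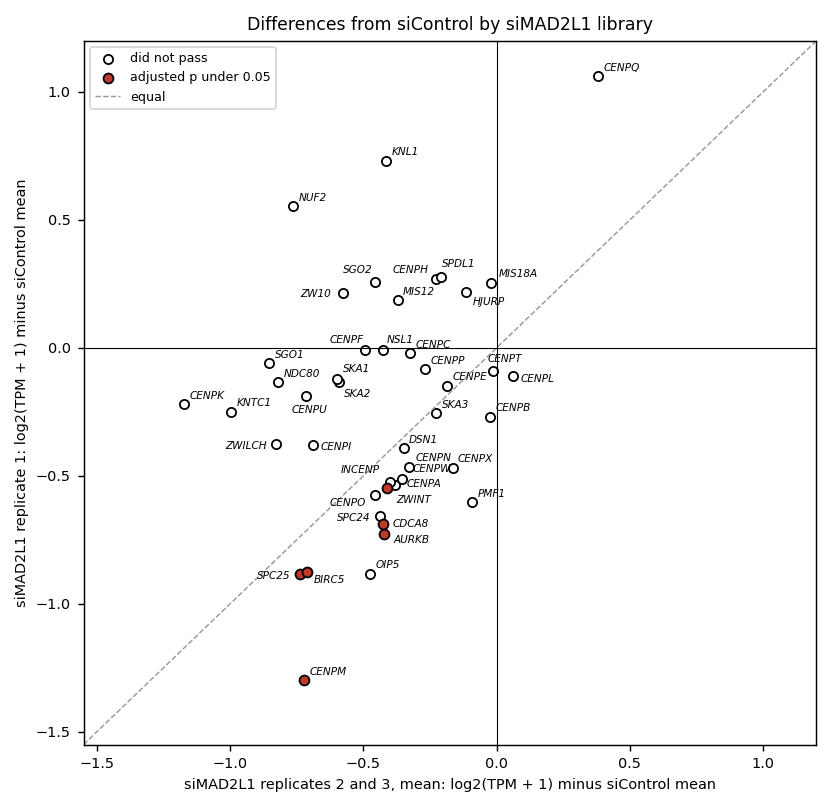
Difference from the siControl mean in log2(TPM + 1) for each of the 44 genes, in siMAD2L1 replicate 1 (y axis) and as the mean of siMAD2L1 replicates 2 and 3 (x axis); filled points passed the test and the dashed line marks equal values. NUF2, KNL1, ZW10, SGO2 and MIS12 are among the genes in the upper left. There replicate 1 lies above the siControl mean and the mean of the others lies below it.

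Other genes of the same structures and of the cell cycle were read from lists chosen with earlier results of these data known. Of 52 other kinetochore and centromere genes 51 were tested; 8 fell (15.7%), 0 rose and 43 did not pass, with a median log2 fold change of -0.21. PLK1, the mitotic kinase, averaged 39.3 TPM in siMAD2L1 and 72.0 TPM in siControl (log2 fold change -0.86, adjusted p = 0.00514), and KIF2C, a microtubule depolymerase of the centromere, 25.2 and 37.6 TPM (-0.56, adjusted p = 0.0132). The others of the 6 largest falls were MXD3 (-0.82), CENPS (-0.66), CENPV (-0.62) and RBBP4 (-0.51). MXD3 encodes a transcription factor of the MAX network and is not a kinetochore or centromere gene. It is nonetheless counted in the 8 falls and in the median of that list. Of 44 G2/M markers 16 fell (36.4%), 0 rose and the median was -0.50. CDC20, which MAD2 binds to hold back anaphase, averaged 40.0 TPM in siMAD2L1 and 84.4 TPM in siControl (-1.07, adjusted p = 0.00344); NEK2 (-0.996), TMPO (-0.96), CDCA3 (-0.91), CDC25C (-0.86) and PLK1 followed. Of 42 S phase markers 16 fell (38.1%), 0 rose and the median was -0.46. PCNA, the sliding clamp of the replication fork, averaged 56.1 TPM in siMAD2L1 and 125 TPM in siControl (-1.14, adjusted p = 0.00153), and CDCA7 (-1.45), MCM6 (-1.17), UHRF1 (-0.87), MCM4 (-0.87) and NASP (-0.84) fell too. The other kinetochore list and the G2/M list share 8 genes, PLK1 and KIF2C among them. The part of these cell cycle markers in the falls of the 44 genes was not tested, nor was that of the mitochondrial share. Without siMAD2L1 replicate 1, 18 of the other kinetochore genes (35.3%), 30 of the G2/M markers (68.2%) and 22 of the S phase markers (52.4%) were called lower, against 11.5% of all tested genes, and 2 G2/M markers were called higher, against 4.84% of all tested genes.

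**Figure D5:**
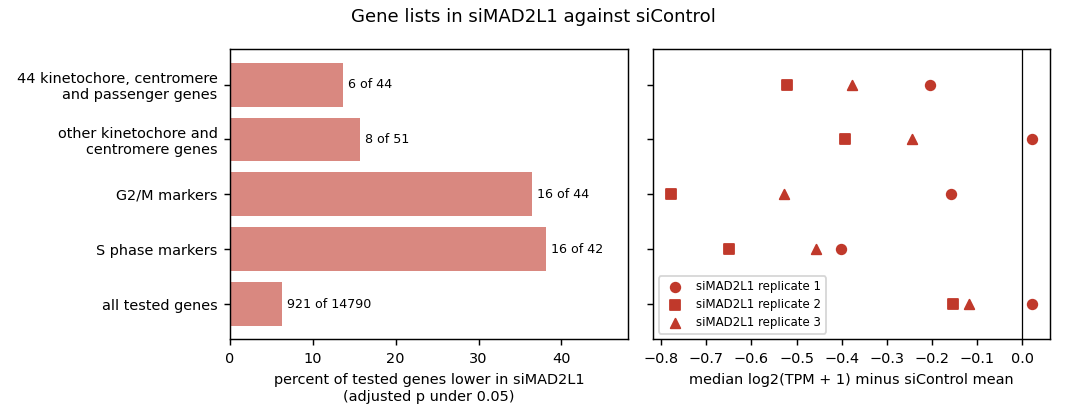
Left, percent of tested genes that were lower in siMAD2L1 at an adjusted p under 0.05 in each list (bars from 0, with counts); right, the median difference of each list from the siControl mean in log2(TPM + 1) for each siMAD2L1 library. The 44 genes are at 13.6%, against 6.23% of all tested genes, and in all 5 rows replicate 2 lies farthest to the left.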

How the data were processed

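RNA was measured in 6 libraries of SNU449 cells, 3 per group, grouped by their titles. Total RNA was extracted with Trizol and libraries were made with an NEBNext Ultra kit, per the labels' protocols. fastp, HISAT2, DESeq2 1.16.1 and hg38 are named in the submitters' processing notes; no read counter, annotation or strand setting is named in the sources used here. The authors deposited TPM values for 60589 genes in 1 table, which hold no read depth, so precision rests on the replicates. The table's columns were matched to libraries by group and number. Gene positions and lengths are from GENCODE 29 (GRCh38), in which all 44 identifiers were found; 17 carry a joined assembly identifier. Promoter windows are RefSeq's first listed window per gene.

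Values were transformed to log2(TPM + 1), and the 14790 genes averaging 1 TPM or more were fitted with limma 3.58.1 (R 4.3.3), with an intensity trend and no covariate. A gene was called where its Benjamini-Hochberg adjusted p, taken over all tested genes, was under 0.05. Fold changes on this scale understate those of low genes. An exact permutation test cannot go below 0.1 with 3 libraries against 3, and none is used for calls. The 44 genes and the lists were chosen with earlier results of these data known. All 44 are named; values by library are given for those that passed, for those with a log2 fold change of at least 0.5 in size and for those at 50 TPM or more, and elsewhere up to 6 called genes per list. Roles and marker lists were written by hand. The labels do not state that equal replicate numbers mark paired samples, and the correlation of deviations between same-numbered libraries was 0.019, 0.00898 and 0.0631, so they were not treated as paired.

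The fit was tested on simulated data with known changes in 200 of 14790 genes and independent noise in each library. The fit to the real data called 1446 genes, and shifts shared by a whole library were not simulated. The shares found and the share of false calls may therefore differ in the real data. It recovered 10.4% of changes of 0.5 on the log2 scale, 53.4% of 1, 77.8% of 1.5 and 88.4% of 2. False calls made up 4.11% of the calls. Alternatives covered 2 smaller pseudocounts (0.1 and 0.5), the filter (none, or 5 TPM), upper-quartile scaling (also over tested genes alone, an alternative chosen after seeing the data), quantile normalization, rescaling after removal of mitochondrial and the 20 highest genes, other limma variance settings, library weights, a replicate block, an adjusted p under 0.01, removal of a length trend, and each library left out. Python 3.11.15 with pandas 2.3.3, numpy 2.4.6 and matplotlib 3.10.9 was used for tables and plots.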

Additional observations from a re-analysis of the deposited data

How the results depend on the processing

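The median log2 fold change of the 44 genes stayed below 0 under each alternative run, between -0.43 and -0.26, and their summed level was 74.8% to 80.1% of siControl except under upper-quartile scaling (83.28%). The count of the 44 called lower, 6 (13.6%, against 6.23% of all tested genes), was 2 with no filter (4.55%, against 1.51%), 2 with upper-quartile scaling (4.65% of the 43 then tested, against 2.88%), 3 with that scaling over tested genes (6.98% of 43, against 4.84%), 3 with no intensity trend (6.82%, against 4.43%), 21 with library weights (47.7%, against 22.6%), 1 at an adjusted p under 0.01 (2.27%, against 1.39%) and 1 to 15 with a library left out. The count called higher, 0, was 1 (CENPQ) under quantile normalization, where 689 of 14792 tested genes were called higher. Over all genes, 1446 calls became 727 with no filter, 952 with no trend, 4860 with library weights, 359 at an adjusted p under 0.01 and 326 to 2422 with a library left out. Lower genes made up 63.7% of calls, but 42% with upper-quartile scaling, 52.5% with that over tested genes, 50.5% with quantile normalization and 41.5% after removal of the length trend. MAD2L1 (-2.223) had an adjusted p of 0.0105, above 0.01, and ranged from -2.606 to -1.802 with a library left out. A replicate block, although the labels do not state that equal numbers mark pairs, gave 868 calls over all genes in either direction. It called 4 of the 44 lower (BIRC5, CENPM, SPC25 and ZWINT), or 9.09%, against 3.6% of all tested genes. Log2 fold changes that changed sign, none of them called, were those of CENPB (0.002476), HJURP (0.09884), CENPH (0.06439), CENPT (0.06747) and SPDL1 (0.06274) after removal of the length trend; of HJURP (0.09532), CENPH (0.02946), CENPT (0.05937), KNL1 (0.01707) and SPDL1 (0.03899) with upper-quartile scaling; of HJURP (0.04469) and CENPT (0.009256) with it over tested genes; of HJURP (0.03365), CENPH (0.0381), CENPT (0.007748), KNL1 (0.1119), CENPE (0.00271) and SPDL1 (0.04974) with quantile normalization; of MIS18A (-0.03427) and SPDL1 (0.1448) with library weights; and of CENPL (-0.03887) without mitochondrial and the 20 highest genes. With a library left out, HJURP ranged from -0.1157 to 0.07418, MIS18A from -0.03797 to 0.1424, CENPH from -0.226 to 0.09466, CENPL from -0.05118 to 0.06315, CENPP from -0.4063 to 0.03875, KNL1 from -0.4134 to 0.2607 and SPDL1 from -0.2491 to 0.3144. The cause of these changes was not tested. The deposited values give no read depth, so counting error could not be separated from the spread between libraries.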
